A study of Mus musculus with 6 samples.

Results

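Interferon-gamma acts on cells through a receptor of paired Ifngr1 and Ifngr2 chains. Ifngr1 carries the kinase Jak1 and Ifngr2 the kinase Jak2, and once ligand is bound the kinases phosphorylate the receptor, and genes such as Irf1 are switched on. Socs1, itself induced by the pathway, inhibits the kinases, and the tyrosine phosphatases Ptpn1 and Ptpn2 remove phosphate from them. In breast tumours the pathway is known for raising antigen presentation and the checkpoint ligand PD-L1. The 8 genes described here, Ifngr1, Ifngr2, Jak1, Jak2, Socs1, Ptpn1, Ptpn2 and Irf1, were listed by symbol for their place at the receptor, and all 8 were found among the 52325 Ensembl gene IDs of the table and among the 20684 genes tested.

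RNA sequencing was done on tumour cells sorted by green fluorescent protein (GFP) from breast tumours of mice that the labels call C3-T; Elf5-GFP, strain C57BL/6. All groups carry the reporter, in which GFP stands for expression of Elf5, an ETS transcription factor of luminal mammary progenitors. There were 2 GFP-positive (Elf5-positive) and 4 GFP-negative (Elf5-negative) libraries. The tumours had been digested with enzymes, and both groups come from cells first sorted with CD45, CD31 and TER119 antibodies. The labels used here give neither the age of the mice, nor any treatment, nor what C3-T stands for. The titles hold 2 numbers and the codes T1 and T2, which the labels do not define. Elf5-positive library 1 shares its number with Elf5-negative libraries 1 (T1) and 2 (T2), and Elf5-positive library 2 shares the other number with Elf5-negative libraries 3 (T1) and 4 (T2). Both Elf5-positive libraries are T2. Nothing says that the libraries come from separate animals, and a p-value here reflects no more than library-to-library spread, which may be technical.

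Depth was lowest in Elf5-negative library 4, with 9106660 counts, and lay between 32602477 and 53694884 counts in the remaining 5. Levels are given as CPM, the usual share of the library total taken by a gene, after TMM scaling. Markers of several cell types differed between the sorts. Summed over 18 epithelial markers, the level was 9433 and 6446 CPM in Elf5-positive libraries 1 and 2 and 2369 to 4044 CPM in the Elf5-negative ones, and 10 of the 18 rose. Summed over 12 fibroblast markers, it was 1320 and 753 CPM against 16771 to 48893 CPM, and 10 of the 12 fell. Of 7 pericyte markers 3 fell and of 9 endothelial markers 3 fell. No member of 6 leukocyte, 8 macrophage or 6 tested T and NK cell markers passed the edgeR test. Of these, 1 T and NK gene had an unadjusted edgeR p under 0.05, and DESeq2 and edgeR with no low-count filter called it lower. Over all genes tested, edgeR called 0.585% higher and 3.79% lower, and DESeq2 called 10.6% in either direction. No marker on these lists had 0 counts in both Elf5-positive libraries. In bulk samples such as these, fewer cells of a type and less RNA per cell cannot be told apart. The part of fibroblast RNA in the differences below was not tested.

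None of the 8 genes differed between the sorts at an adjusted p below 0.05 (edgeR quasi-likelihood test, Benjamini-Hochberg over all genes). Jak1, at 124 against 249 CPM, and Socs1, at 7.15 against 14.5 CPM, lay lowest in Elf5-positive cells relative to Elf5-negative ones, and Ptpn2 alone had a mean above that of the Elf5-negative group. The receptor chains were at 60.2 against 89.0 CPM for Ifngr1 and 58.0 against 71.9 CPM for Ifngr2. Among all genes the same test called 4.37%, with 0.585% higher and 3.79% lower, so 0 of 8 is near that background. At an unadjusted p under 0.05 there were 2 of 8, Jak1 and Jak2, where 16.9% of all genes tested reached that. Jak2 lay at the cut itself (edgeR unadjusted p = 0.04999). DESeq2 called 1 of the 8, Jak1 (adjusted p = 0.0301), in a setting that called 10.6% of all genes, with 8.52% lower, and limma-voom called 0. No overlap of the 2 sorts was seen for Ifngr1, Jak1 and Socs1, each lower in the Elf5-positive libraries, against 25.7% of all genes without overlap and 14.8% without overlap and lower. The median log2 fold change of the 8 was -0.46, beside 0.05 for all genes tested, and 7 of 8 were below 0, as were 46.7% of all genes. That median was -0.72 without Elf5-positive library 1 and -0.26 without Elf5-positive library 2. The plot of levels by library shows each value.

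**Figure D1:**
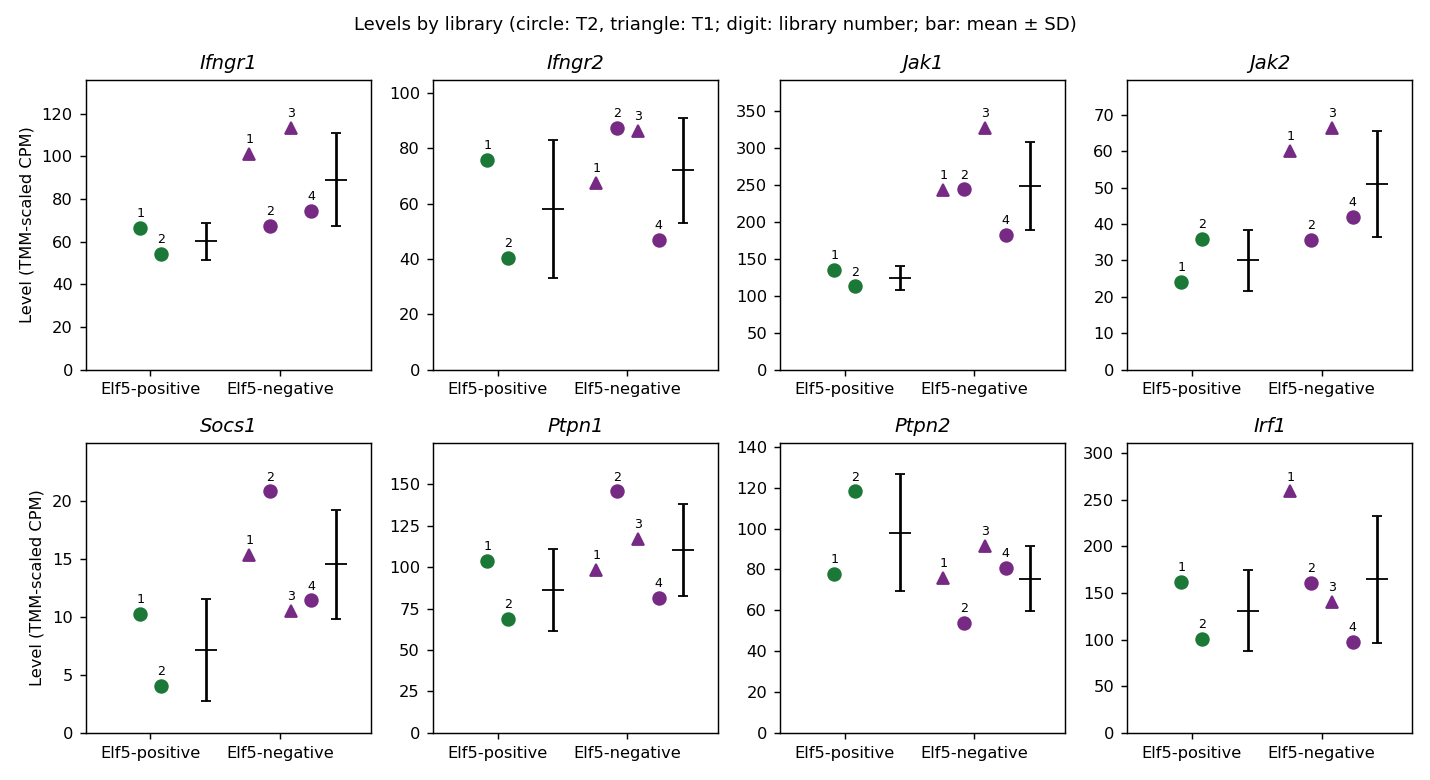
Level of each of the 8 genes in TMM-scaled CPM (vertical axis, from 0) in the 2 Elf5-positive (green) and 4 Elf5-negative (purple) libraries. Circles are T2 and triangles T1 libraries, digits are library numbers, and black bars are mean ± SD. The groups do not overlap for Ifngr1, Jak1 and Socs1, and the T1 libraries are the 2 highest for Ifngr1 and Jak2.

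Ifngr1 encodes the ligand-binding chain (ENSMUSG00000020009.12, chromosome 10, 19591949 to 19610229, GRCm38). It was at 66.3 and 54.0 CPM in Elf5-positive libraries 1 and 2, and at 101, 67.3, 113 and 74.5 CPM in Elf5-negative libraries 1 to 4. Both Elf5-positive values lay below all 4 others, but Elf5-positive library 1 and Elf5-negative library 2, which share a number and the code T2, differed by -0.02 on the log2 scale. The high Elf5-negative values were those of the T1 libraries. Its log2 fold change was -0.57 (SE 0.28, edgeR adjusted p = 0.372), with a 95% interval of -1.21 to 0.08. Over the T2 libraries alone it was -0.23 (SE 0.26). Summed fibroblast markers were also higher in the T1 libraries, at 23787 and 48893 CPM, than in the Elf5-negative T2 libraries, at 16771 and 17008 CPM. Their part in the T1 values was not tested.

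A protein-level claim is attached to this receptor. The study behind these libraries is known for reporting that tumour cells without Elf5 hold more Ifngr1 protein because its degradation through the ubiquitin ligase subunit Fbxw7 is reduced. Protein was not measured in these files, so the claim can only be set beside the transcripts. It concerns tumour cells, while the Elf5-negative libraries also held 16771 to 48893 CPM of summed fibroblast markers. The Elf5-positive libraries held 1320 and 753 CPM, and the part of such RNA in the transcripts below was not tested. The Ifngr1 transcript did not pass the test, and its interval runs from a lower level in Elf5-positive cells to one slightly above that of Elf5-negative cells. The Fbxw7 transcript was at 42.5 and 86.1 CPM in the Elf5-positive libraries and 36.3, 35.3, 34.0 and 44.6 CPM in the Elf5-negative ones. Its high value was that of Elf5-positive library 2, while Elf5-positive library 1 lay below Elf5-negative library 4. The log2 fold change of Fbxw7 was 0.78 (SE 0.30, edgeR adjusted p = 0.228). Elf5 itself, on whose reporter the cells were sorted, was at 77.7 and 137 CPM against 6.93 to 24.7 CPM, which checks the labels.

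Ifngr2 encodes the signalling chain (ENSMUSG00000022965.7, chromosome 16, 91547072 to 91565623). It was at 75.7 and 40.3 CPM in the Elf5-positive libraries and at 67.5, 87.3, 86.2 and 46.8 CPM in the Elf5-negative ones. The groups overlapped, and the 2 lowest values were the T2 libraries of 1 title number, 1 from each sort. Its log2 fold change was -0.31 (SE 0.35, edgeR adjusted p = 0.743), with a 95% interval of -1.12 to 0.50. It was 0.07 without Elf5-positive library 2 and -0.84 without Elf5-positive library 1. Against its Elf5-negative T2 partner of the same number, the Elf5-positive library differed by -0.21 and -0.22 on the log2 scale.

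Jak1, the kinase bound to Ifngr1 and to several other cytokine receptors, showed the clearest separation of the 8 (ENSMUSG00000028530.14, chromosome 4, 101152367 to 101265282). It was at 135 and 113 CPM in the Elf5-positive libraries, and at 243, 244, 327 and 183 CPM in Elf5-negative libraries 1 to 4. All 4 Elf5-negative values were above both Elf5-positive ones. Jak1 had a log2 fold change of -1.01 (SE 0.29, edgeR adjusted p = 0.108), and its 95% interval, -1.68 to -0.33, is not adjusted for the number of genes. With each library left out in turn it lay between -1.15 and -0.85, and no such fit called it. Elf5-negative library 3, the highest for Jak1, also had the highest summed fibroblast markers, and the part of these was not tested.

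Jak2, the kinase bound to Ifngr2, was less clear (ENSMUSG00000024789.12, chromosome 19, 29251828 to 29313080). Its level was 24.0 and 36.0 CPM in the Elf5-positive libraries and 60.0, 35.6, 66.3 and 41.9 CPM in the Elf5-negative ones. Elf5-positive library 2 overlapped with Elf5-negative library 2, and the 2 high values were again the T1 libraries. Jak2 had a log2 fold change of -0.77 (SE 0.33, edgeR adjusted p = 0.296). Over the T2 libraries alone it was -0.36 (SE 0.33).

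Irf1, a transcription factor induced early after interferon-gamma, stood at 162 and 100.4 CPM in the Elf5-positive libraries (ENSMUSG00000018899.16, chromosome 11, 53770014 to 53778374). In Elf5-negative libraries 1 to 4 it was at 259, 161, 141 and 97.6 CPM. Elf5-negative library 1 was highest and Elf5-negative library 4 lowest, so the groups overlapped throughout. For Irf1 it came to -0.33 on the log2 scale (SE 0.40, edgeR adjusted p = 0.768), with a 95% interval of -1.26 to 0.60. It was -0.02 without Elf5-negative library 1, -0.03 without Elf5-positive library 2 and 0.02 over the T2 libraries alone. Between T2 libraries of the same number the log2 ratios were 0.01 and 0.04, the smallest pair of ratios among the 8 genes. The library highest for Irf1 also held the most macrophage marker RNA, 475 CPM summed over 8 genes against 92.5 to 224 CPM in the other Elf5-negative libraries, whose part was not tested.

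Socs1 encodes the feedback inhibitor that binds the kinases (ENSMUSG00000038037.4, chromosome 16, 10782240 to 10785536). It was the lowest of the 8 in counts, with 111 to 703 counts a library. Its level was 10.2 and 4.06 CPM in the Elf5-positive libraries and 15.3, 20.8, 10.5 and 11.4 CPM in the Elf5-negative ones. The groups did not overlap, although Elf5-positive library 1 and Elf5-negative library 3 nearly met. Socs1 had a log2 fold change of -1.02 (SE 0.48, edgeR adjusted p = 0.338), with a 95% interval of -2.13 to 0.08. It was -1.84 without Elf5-positive library 1 and -0.50 without Elf5-positive library 2. Against the Elf5-negative T2 partner of the same number, Socs1 in the Elf5-positive library differed by -1.02 and -1.49 on the log2 scale.

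The 250 bases before the start of Irf1, Socs1 and Ifngr1 are shown because the first pair are induced by the pathway and the third is the receptor chain of the protein claim. They come from RefSeq (GRCm38.p6), in a table with an entry for 7 of the 8 genes. Both strands were searched for the gamma-activated site (TTCNNNGAA), for a core bound by interferon regulatory factors (AANNGAAA) and for a site of the ETS family to which Elf5 belongs (CCGGAAGT). Of 32841 promoter windows of the same length, 7.02%, 21.3% and 2.88% held them. Sequences run 5′ to 3′ on the gene's strand, and capitals mark matches.
Irf1, chr11:53769764-53770013, plus strand: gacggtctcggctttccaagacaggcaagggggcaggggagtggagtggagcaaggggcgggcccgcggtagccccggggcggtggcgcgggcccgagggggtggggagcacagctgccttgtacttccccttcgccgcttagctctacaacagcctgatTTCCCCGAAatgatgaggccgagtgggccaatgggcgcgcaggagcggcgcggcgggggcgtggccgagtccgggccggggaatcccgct
Socs1, chr16:10785537-10785786, minus strand: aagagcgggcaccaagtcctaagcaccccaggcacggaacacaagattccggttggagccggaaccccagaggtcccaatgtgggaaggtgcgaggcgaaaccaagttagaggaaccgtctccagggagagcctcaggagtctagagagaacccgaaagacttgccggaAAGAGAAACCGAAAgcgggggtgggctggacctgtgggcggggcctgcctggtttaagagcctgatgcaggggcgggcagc
Ifngr1, chr10:19591699-19591948, plus strand: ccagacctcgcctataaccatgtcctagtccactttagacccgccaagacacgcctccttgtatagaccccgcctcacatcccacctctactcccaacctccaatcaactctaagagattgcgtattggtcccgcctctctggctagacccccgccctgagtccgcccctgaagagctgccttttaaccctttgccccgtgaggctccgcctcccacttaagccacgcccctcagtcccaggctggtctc

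The window of Irf1 held 1 match to the gamma-activated site, beginning at base -90 counted from the start. The window of Socs1 held 2 matches to the interferon regulatory factor core, which begin at bases -81 and -75 and overlap. None of the 3 motifs was found in the window of Ifngr1, nor in those of Ifngr2, Jak1, Jak2 and Ptpn1 or at a further RefSeq start of Irf1. A match is a description of letters, and the absence of one says only that these letters are not in the window.

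Ptpn1 encodes the phosphatase PTP1B, which acts on Jak2 among other kinases (ENSMUSG00000027540.13, chromosome 2, 167932057 to 167979385). It was at 104 and 68.6 CPM in the Elf5-positive libraries and at 98.0, 146, 117 and 81.2 CPM in the Elf5-negative ones. As for Ifngr2, the T2 libraries of 1 title number were the 2 lowest, and the groups overlapped. The log2 fold change was -0.36 (SE 0.30, edgeR adjusted p = 0.646), and it ranged from -0.69 without Elf5-positive library 1 to -0.09 without Elf5-positive library 2.

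Ptpn2 encodes the phosphatase TC-PTP, which acts on Jak1 among other proteins (ENSMUSG00000024539.17). It was the only gene of the 8 with a higher mean in the Elf5-positive libraries, at 77.6 and 118 CPM. The Elf5-negative libraries held 75.8, 53.6, 91.5 and 80.6 CPM. Elf5-positive library 2 was the highest of all 6, while Elf5-positive library 1 lay within the Elf5-negative range. The log2 fold change was 0.38 (SE 0.28, edgeR adjusted p = 0.594), with a 95% interval of -0.27 to 1.03, and it was 0.04 without Elf5-positive library 2. Between T2 libraries of the same number it was 0.53 and 0.55 higher, on the log2 scale, in the Elf5-positive library. Scaled to epithelial genes instead of TMM, the log2 fold change of Ptpn2 was -0.93 (edgeR adjusted p = 0.103). That is above the median of all genes in that setting, -1.31.

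**Figure D2:**
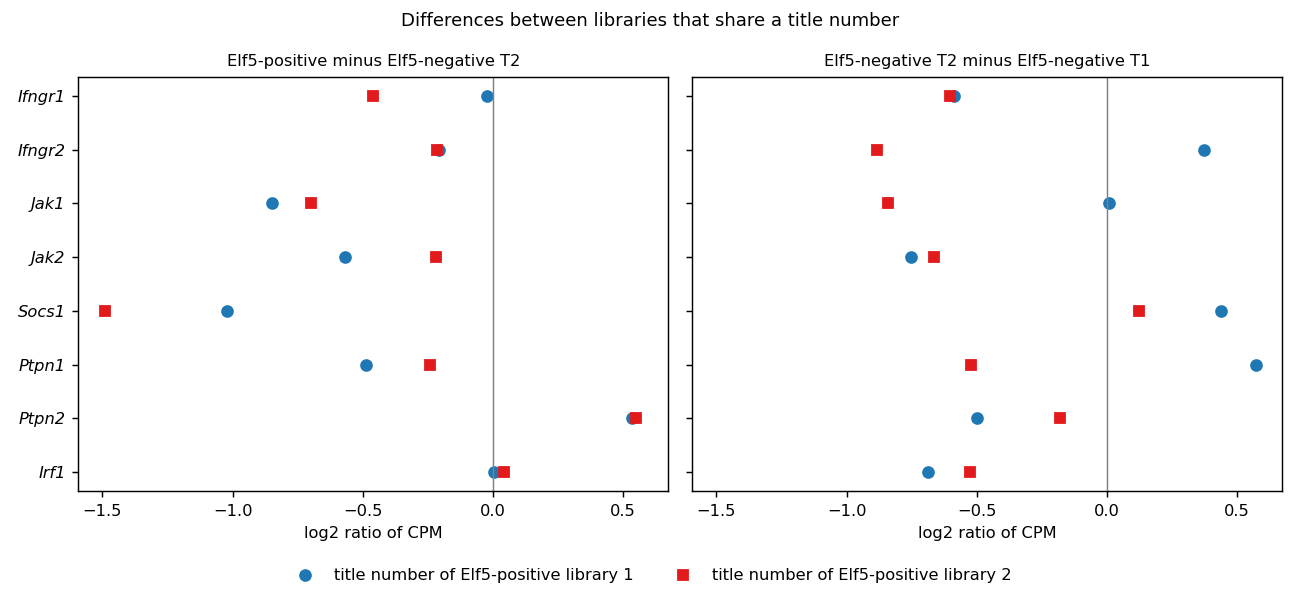
Log2 ratio of CPM (horizontal axis) for each of the 8 genes between libraries that share a title number, with no error since each point is 1 library against 1 other. On the left, Elf5-positive minus Elf5-negative T2: Jak1 and Socs1 lie below -0.69 in both numbers, Ptpn2 lies near 0.5, and Irf1 near 0. On the right, Elf5-negative T2 minus T1: Ifngr1, Jak2 and Irf1 lie below -0.5 in both numbers.

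The plot of ratios within a title number sets the sort beside the difference between T1 and T2. For Ifngr1, T2 minus T1 among the Elf5-negative libraries was -0.59 and -0.60, and Elf5-positive minus Elf5-negative T2 was -0.02 and -0.46. For Jak2 the corresponding values were -0.75 and -0.66, and -0.57 and -0.22. Irf1 was also lower in T2 than in T1, by -0.69 and -0.53. Jak1 showed another pattern: Elf5-positive minus Elf5-negative T2 was -0.85 and -0.70, while T2 minus T1 was 0.01 in 1 number and -0.84 in the other. Socs1 was slightly higher in T2 than in T1, by 0.44 and 0.12. These ratios have 1 value for each number and were not tested.

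The choice of scale matters for all 8. When the libraries were scaled so that the 18 epithelial markers had an equal sum, the median over all genes moved on the log2 scale from 0.05 to -1.31, and 13 genes were higher and 8490 lower in place of 121 and 783. In that setting 7 of the 8 passed as lower, all but Ptpn2, beside 41% of all genes. Such scaling moves the fold changes of all genes by nearly the same amount. Values relative to the median of all genes therefore stay close by construction. Less that median, Ifngr1 was at -0.61 with TMM and -0.63 with epithelial scaling, Jak1 at -1.06 and -1.04, and Socs1 at -1.07 and -1.20. Ptpn2 was at 0.33 and 0.39.

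**Figure D3:**
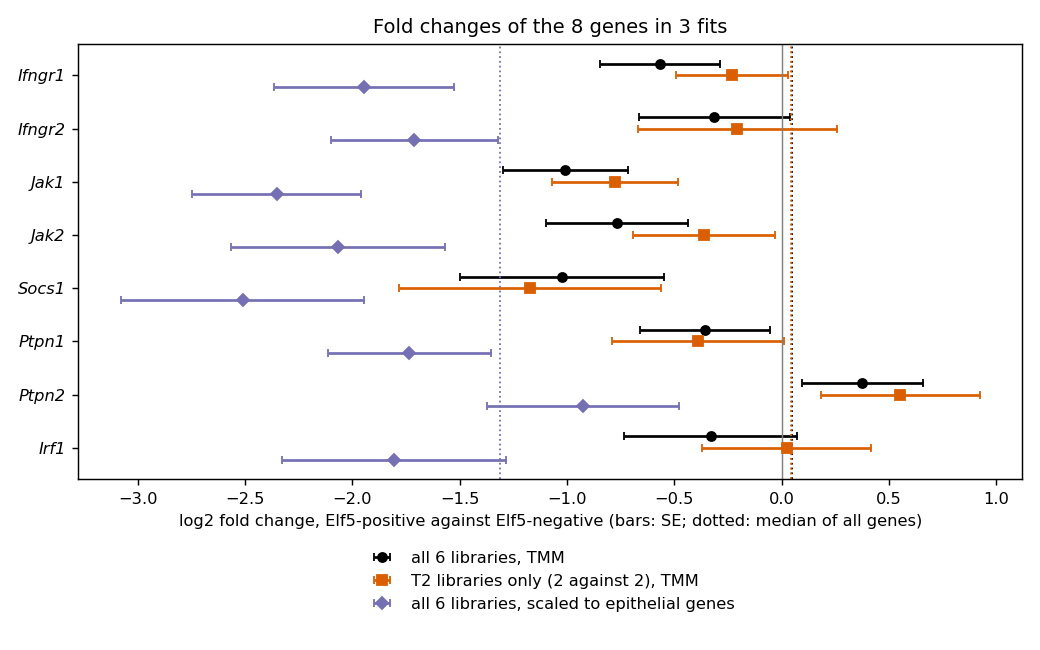
Log2 fold change (horizontal axis) of each of the 8 genes with its standard error in 3 fits: all 6 libraries with TMM (black), T2 libraries only (orange) and all libraries scaled to epithelial genes (violet). Dotted lines mark the median of all genes, 0.05, 0.04 and -1.31. Ptpn2 is the only one of the 8 to the right of the median of all genes in each fit.

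Levels of different genes were compared as CPM per kilobase, over all annotated exon sequence of a gene. The gene models behind the counts are not given, so this corrects for length only roughly. In the Elf5-negative libraries the order was Irf1 (41.4 ± 17.2 CPM per kilobase, SD, n = 4), Jak1 (34.5 ± 8.23), Ifngr1 (31.3 ± 7.63), Ptpn2 (24.1 ± 5.09), Ptpn1 (20.0 ± 4.99), Ifngr2 (19.1 ± 5.06), Jak2 (10.1 ± 2.89) and Socs1 (4.99 ± 1.61). The ranges of all 7 neighbouring pairs in that order overlapped. Within each of the 4 libraries, however, Ifngr1 was above Ptpn2 and Ifngr2 above Jak2, while the other 5 pairs kept that order in 2 or 3 of the 4. In the Elf5-positive libraries the order was Irf1 (33.0), Ptpn2 (31.3), Ifngr1 (21.1), Jak1 (17.2), Ptpn1 (15.6), Ifngr2 (15.4), Jak2 (5.96) and Socs1 (2.46 CPM per kilobase, n = 2). There Ptpn2 lay above Ifngr1, Ifngr1 above Jak1, Ifngr2 above Jak2 and Jak2 above Socs1 with no overlap between the 2 libraries, and the other neighbours overlapped. Jak1 ranked above Ptpn2 by mean in the Elf5-negative cells and below it in the Elf5-positive ones. Ifngr1 was above Ifngr2 in both groups' means.

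The genes whose profile over the 6 libraries was most like each receptor chain were found by the mean absolute difference of centred log2 CPM, over 10162 genes. For Ifngr1 they were Parm1 (0.041), March2 (0.057), Zfp945 (0.086), Spata6 (0.089) and Yipf1 (0.089). For Ifngr2 they were Smap2 (0.053), Slc10a3 (0.060), Tapbp (0.067), which encodes the peptide-loading chaperone tapasin, Rab2a (0.069) and Dusp12 (0.070). The 2 chains were not close to each other, at 0.356, where Ifngr2 ranked 2548 from Ifngr1. Of the other 6 genes Jak2 was nearest to Ifngr1 (0.202, rank 266), and Ptpn1 nearest to Ifngr2 (0.145, rank 111). Jak2, the kinase bound to Ifngr2, was at 0.558 from that chain, rank 6786. With 6 libraries this likeness is a description only.

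Of the other signal transducers and regulators 18 of 19 were tested, and edgeR called 0 (4 had an unadjusted p under 0.05, DESeq2 called 1). For this list and those below, the shares over all genes are 16.9% at an unadjusted p under 0.05 and 10.6% called by DESeq2. Their median log2 fold change was 0.04, and -0.39 without Elf5-positive library 2. Socs3, a feedback inhibitor best known for cytokines of the interleukin 6 family, was at 251 and 165 CPM against 566, 402, 439 and 316 CPM, without overlap. Its log2 fold change was -1.05 (SE 0.33, edgeR adjusted p = 0.134), and DESeq2 called it (adjusted p = 0.0378). Stat5a, a prolactin effector, was at 38.0 and 48.1 CPM against 22.1 to 31.4 CPM (0.63, SE 0.24), and Pias3, an inhibitor of Stat factors, at 27.3 and 32.9 CPM against 37.7 to 52.6 CPM (-0.60, SE 0.24). Irf8 and Sh2b3 had log2 fold changes of -1.25 and -0.39. The gene of the ligand, Ifng, was not tested, since it had 3 and 0 counts in the Elf5-positive libraries and 6, 2, 0 and 0 counts in the Elf5-negative ones. The 0 counts allow a level of up to 0.058 CPM for Elf5-positive library 2, and of up to 0.061 and 0.309 CPM for Elf5-negative libraries 3 and 4, for counting error only.

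Among the sister cytokine receptors and kinases 9 of 10 were tested and edgeR called 0 (2 had an unadjusted p under 0.05, DESeq2 called 2), with a median log2 fold change of -0.35, and of -0.12 without Elf5-positive library 2. Ifnlr1, the receptor chain for interferon-lambda and largely epithelial, was at 31.4 and 33.2 CPM against 15.3, 12.5, 17.8 and 17.7 CPM. The groups were far apart, with a log2 fold change of 1.03 (SE 0.24, edgeR adjusted p = 0.0584). DESeq2 and limma-voom called it (adjusted p = 0.00493 and 0.0455). Scaled to epithelial genes, Ifnlr1 was at -0.32, above the median of all genes. Summed epithelial markers were also higher in the Elf5-positive libraries, and their part in Ifnlr1 was not tested. The type I interferon receptor chains Ifnar1 and Ifnar2 were at -0.36 (SE 0.22) and -0.53 (SE 0.36) on the log2 fold change scale. Il20rb was at 1.17 (SE 0.56), with 4.99 and 18.7 CPM against 3.62 to 8.33 CPM, so that its groups overlapped. Il20ra had 0 and 4 counts in the Elf5-positive libraries and 7 to 26 in the Elf5-negative ones, and DESeq2 called it (adjusted p = 0.0215).

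All 25 interferon-gamma target genes were tested, and edgeR called 0 of them (1 had an unadjusted p under 0.05, and DESeq2 called that gene, Cxcl9). Their median was -0.18, with 14 below and 11 above 0. It was 0.06 without Elf5-negative library 1, 0.02 in the T2 libraries and -0.49 without Elf5-positive library 2. Cxcl9, a chemokine for T cells, was at 0.495 and 1.06 CPM against 6.40, 2.43, 6.35 and 2.67 CPM, a log2 fold change of -2.52 (SE 0.67, edgeR adjusted p = 0.0863). With no low-count filter its adjusted p in edgeR was 0.0326. Gbp5, an interferon-induced GTPase, and Icam1, an adhesion molecule, stood at -1.25 (SE 0.58) and -1.56 (SE 0.74) on that scale. Ido1, a tryptophan-degrading enzyme, stood at -2.32 (SE 1.18) on 1 to 101 counts a library. Cd274, which encodes PD-L1, was at 3.42 and 4.12 CPM against 13.5, 3.94, 6.22 and 9.46 CPM, with Elf5-negative library 2 between the Elf5-positive ones (-1.13, SE 0.54, edgeR adjusted p = 0.348).

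On the list for receptor turnover, 2 of 9 had an unadjusted p under 0.05, Fbxw7 and Elf5, and DESeq2 called 1. In edgeR 1 of the 9 passed, Elf5, on whose reporter the cells were chosen. Its log2 fold change was 3.04 (SE 0.48, edgeR adjusted p = 0.0165), and its edgeR adjusted p missed the threshold when Elf5-positive library 2 (0.0573) or Elf5-negative library 1 (0.0665) or 3 (0.0644) was dropped. The median of the 9 was 0.32. Skp1a and Rbx1, subunits of the ligase complex that Fbxw7 serves, stood at 0.65 (SE 0.28) and 0.59 (SE 0.30) on the log2 fold change scale. Skp1a was at 284 and 182 CPM against 179, 130, 169 and 118 CPM, so its groups nearly met. Gsk3a, a kinase, was at 116 and 107 CPM against 79.6 to 96.3 CPM (0.32, SE 0.20), and none of these 3 passed over all 6 libraries in edgeR. Scaled to epithelial genes, Fbxw7 and Skp1a were at -0.51 and -0.78, both above the median of all genes.

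**Figure D4:**
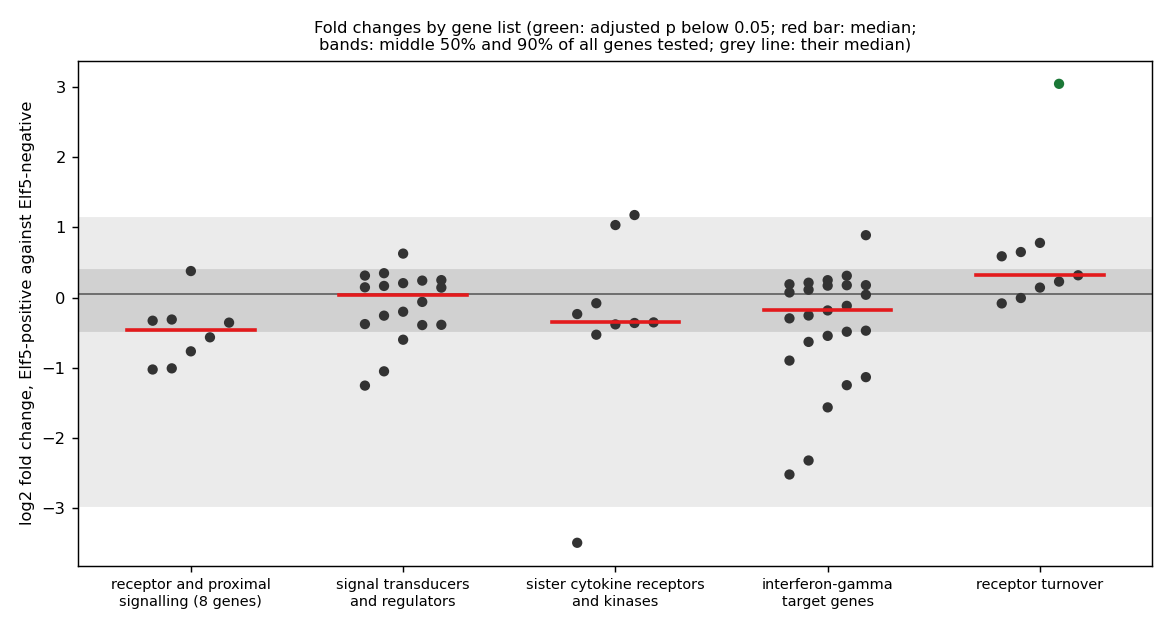
Log2 fold change (vertical axis) of each tested gene in the 8 genes of the receptor and its proximal signalling and in 4 further lists. Red bars are list medians (-0.46, 0.04, -0.35, -0.18 and 0.32), grey bands hold the middle 50% and 90% of all genes, and Elf5 (green) is the only gene called.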

How the data were processed

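The authors deposited 1 table of whole-number estimated counts (expected counts) per Ensembl gene, for which the submitters' processing notes name Salmon and GRCm38.p5. Its version, the gene models and the summing of transcripts are not given in the sources. Strand is not stated, so reads of Irf1 and its antisense neighbour Gm17334 cannot be told apart, and Jak1 overlaps the end of Raver2, the snRNA gene Gm24468 and the pseudogene Gm12785.

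Symbols matched 52220 of 52325 IDs. Genes were filtered with filterByExpr and scaled by TMM, and the 2 groups compared with edgeR 4.0.16 (R 4.3.3, limma 3.58.1, DESeq2 1.42.0) by the quasi-likelihood test. That test was also run on simulated counts, with independent libraries and as many genes raised as lowered. Such a simulation does not cover calls that are mostly lower, as here, or libraries that are not independent. The fold change is Elf5-positive over Elf5-negative, and standard errors are the fold change over the root of F. Depth was 9106660 counts in the shallowest library, which gives the least precise values. Positions and exon lengths are from GENCODE M21 (GRCm38).

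The members and lists were chosen with earlier results of these data known. Besides the 8 genes, Elf5, Fbxw7 and Cd274, the text names the 5 genes of smallest p of each list other than marker lists, every gene of these called over all 6 libraries, and the 5 genes closest in profile to each receptor chain. A further gene of that rule is not reported here. Alternatives were 3 other normalizations and scaling to epithelial genes, other filters, limma-voom, DESeq2, robust dispersions, a block for the title number, T2 libraries with and without it, each library left out, Elf5-negative libraries 1 and 2 left out and thinned counts.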

Additional observations from a re-analysis of the deposited data

Results flagged for a closer look

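In 1 of 25 results checked, 1 Elf5-negative library stood far from the other 3, by its gap to the nearest over the whole range. Chance alone flags about 1 in 20. The summed level of the 25 interferon-gamma target genes was 3671 CPM in Elf5-negative library 1 and 2176 to 2430 CPM in the others (ratio 0.83), just past the critical value. B2m, the light chain of MHC class I, made up most of this sum, with 1947 CPM there and 1194 to 1405 CPM in the other Elf5-negative libraries. The same library was highest of the 6 for Irf1, at 259 CPM. Summed leukocyte markers were also highest in it, at 124 CPM against 38.5 to 59.5 CPM in the other Elf5-negative libraries. So were summed skeletal muscle markers, at 206 CPM against 3.91 to 42.3 CPM. The part of these markers in the values was not tested.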

How the results depend on the processing

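Of 20 alternatives, 17 called 0 of the 8 genes. Scaling to epithelial genes called 7, DESeq2 called 1 (Jak1), and the T2 libraries with the title number as a replicate block called 2, Jak1 (log2 fold change -0.77, adjusted p = 0.0391) and Socs1 (-1.24, adjusted p = 0.0423), where 7.05% of all genes were called lower. The title numbers are not said to pair libraries. Deviations from the group means correlated over genes at 0.49 and 0.54 in the 2 T2 pairs of a number, at 0.16 for Elf5-positive library 1 with Elf5-negative library 1 and at -0.03 for Elf5-positive library 2 with Elf5-negative library 3. With only 2 Elf5-positive libraries, their deviations mirror each other, so each correlation returns with the opposite sign for the other one. The correlation was -0.49 for Elf5-positive library 2 with Elf5-negative library 2. It was -0.54 for Elf5-positive library 1 with Elf5-negative library 4. The 2 pairs are thus not independent, and these values cannot show that the numbers pair libraries. The block over all libraries called none of the 8, and 1263 genes in all, 882 of them among the 904 called without it. With the block Ifnlr1 passed over all libraries (1.04, adjusted p = 0.0382) and in T2 (1.13, adjusted p = 0.0336), and in T2 alone so did Skp1a (0.89, adjusted p = 0.0457), Socs3 (-0.80, adjusted p = 0.0446), Icam1 (-1.13, adjusted p = 0.0426) and Jak3 (-0.72, adjusted p = 0.0378), which was named after its values were seen.

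Over all genes, 904 were called, and 8503 when scaled to epithelial genes, 1604 with no low-count filter, 2199 by DESeq2, 0 in the T2 libraries (1932 at an unadjusted p under 0.05), 1917 there with the block, and 75 without Elf5-negative libraries 1 and 2. With 1 library left out the count ran from 236 (without Elf5-positive library 2) to 944, with 274, 604 and 381 when Elf5-negative library 1, 2 or 3 was dropped. Directions turned for Ptpn2 scaled to epithelial genes (-0.93), for Ifngr2 without Elf5-positive library 2 (0.068, the top of a range from -0.84 with 1 library left out), and for Irf1 in the T2 libraries (0.023), there with the block (0.030) and without Elf5-negative libraries 1 and 2 (0.142). Less the median of all genes, Ptpn2 was at 0.33 with TMM and 0.39 with epithelial scaling. The cause of the other changes was not tested. Depth limits Socs1 most among the 8, with 111 counts in the shallowest library.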

Other observations

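Ifngr2 lies in a cluster of cytokine receptor genes on chromosome 16, with Ifnar2 (91372783 to 91405589), Il10rb (91406164 to 91425834) and Ifnar1 (91485238 to 91507441) before it. These neighbours were looked at after their values were seen. Ifnar2 was at 42.7 CPM in Elf5-positive library 1, lowest of all in Elf5-positive library 2, and at 48.4, 51.7, 53.0 and 30.4 CPM in Elf5-negative libraries 1 to 4. As for Ifngr2, its 2 lowest values were Elf5-positive library 2 and Elf5-negative library 4, the T2 libraries of 1 title number. By the mean absolute difference of centred log2 CPM, Ifnar2 ranked 55 of 10162 genes from Ifngr2 (0.120), Il10rb ranked 169 (0.159) and Ifnar1 ranked 759 (0.238). From Ifngr1, on another chromosome, the ranks of Ifnar2, Il10rb and Ifnar1 were 1580, 1729 and 235. Ifnar1 was lowest in the 2 Elf5-positive libraries, at 70.0 and 60.6 CPM, against 70.8 to 97.6 CPM in the Elf5-negative ones. Il10rb was at 34.7 and 29.1 CPM in the Elf5-positive libraries and at 35.0, 42.6, 48.1 and 24.2 CPM in the Elf5-negative ones. Its 2 lowest values were Elf5-negative library 4 and Elf5-positive library 2, as for Ifnar2. The same 2 lowest libraries were also seen outside this cluster. Ptpn1, on chromosome 2, had them and ranked 111 from Ifngr2 (0.145), nearer than Il10rb and Ifnar1. Smap2, Slc10a3, Tapbp, Rab2a and Dusp12 had them too and ranked nearer than all 3 neighbours. These 5 were picked as the genes most like Ifngr2, so both points follow from that choice. Whether the T2 libraries of that number share a change in this region was not tested.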
